A study of Mus musculus with 36 samples.

Results

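The lungs of 3 female C57BL/6 mice given 9527+oil were compared with the lungs of 3 female C57BL/6 mice given saline. These 6 mice are part of a series of 36 wild-type mice, 18 of each sex, in which each sex held 6 groups of 3 mice: a saline group, a group given oil alone, a group for each of the dispersants Corexit 9500 and Corexit 9527 alone, and a group for each mixture of a dispersant with oil (9500+oil and 9527+oil). Corexit 9527 is a liquid dispersant used on oil slicks, the oil was crude from the Macondo well, and 9527+oil was a mixture of 1 part oil and 0.5 parts Corexit to 20 parts of a balanced salt solution. The mixture was diluted to 0.1 of its strength, and 50 µL was given into the airway on days 0, 7 and 13 to mice that were 8 weeks old at the start. The mice were killed on day 14, and the left lung was sequenced. All mice of both groups were included, the treated mice being numbered 16, 17 and 18 and the saline mice 1, 2 and 3. Of the 18120 gene entries of the female count table, 18116 were used, and 14869 had enough reads in the 6 mice to be tested.

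The comparison asks which lung genes differ in abundance a day after the last of the 3 doses of the dispersed oil. Airway exposure to oil and detergents meets several cell types at once. The epithelium lines the airways and secretes mucus and defense proteins, and the alveolar macrophages patrol the air spaces, take up particles and lipid and release chemokines, which are small secreted proteins that attract leukocytes. Lung cells also carry a circadian clock, a loop in which the CLOCK and BMAL1 proteins switch on the Per and Cry genes, whose products then switch CLOCK and BMAL1 off. Adrenal glucocorticoid hormones act on many of the same genes, Per1 among them.

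Before the results, 1 library has to be described. In saline mouse 3, 45.1% of all counts came from the 13 genes of the mitochondrial genome (95% Wilson interval 45.07 to 45.11%, for counting error only), against 6.16 to 7.79% in the other 5 mice. GC-rich genes were also low in that library: the median of GC-rich minus GC-poor genes was -3.03 on the log2 scale, against 0.20 to 0.45 in the other 5 mice. Among the 18 female libraries, 4 had over 20% of their counts on mitochondrial genes, and none of the 18 male libraries did. Saline mouse 3 was therefore kept in the comparison of 3 against 3 mice and left out in a second fit of 3 treated mice against saline mice 1 and 2, and values of both fits are given for the main genes and lists. Total counts ran from 17501716 in saline mouse 3 to 27433981 in saline mouse 2. Levels are given as CPM, the counts of a gene per 1000000 counts of its library, on library sizes scaled by the trimmed mean of M values, and differences as log2 fold changes of 9527+oil over saline with their standard error (SE). The labels number the mice but give no litter or cage, and a bulk lung sample cannot tell fewer cells of a type from less RNA per cell.

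Among the 6 mice no gene of 14869 passed an adjusted p under 0.05 in edgeR's quasi-likelihood test, which is 0% of the genes tested, and the lowest adjusted p was 0.914. At an unadjusted p under 0.05, 36 genes were higher in the treated mice (0.242% of those tested) and 128 were lower (0.861%). DESeq2 called 17 genes at an adjusted p under 0.05, or 0.0958% of the 17750 genes to which it gave an adjusted p, and in 6 of the 17 saline mouse 3 was the only mouse with any count. All 3 treated mice exceeded all 3 saline mice in 1622 genes (10.9%), and were below all 3 in 1061 genes (7.14%). Without saline mouse 3, 2 of 15147 genes passed an adjusted p under 0.05 (0.0132%), 962 genes (6.35%) were higher and 903 (5.96%) lower at an unadjusted p under 0.05. All of the 36 higher genes and 115 of the 128 lower genes of the first fit were among these. The values below are therefore mostly levels and directions, and the levels of each mouse show where the groups overlap.

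Genes of the circadian clock were among those with the smallest p and no overlap between the groups. Per1, a repressor of the clock that glucocorticoids also induce, lay on chromosome 11 (chr11:69095217-69109960, GRCm38) and had 115, 174 and 126 CPM in saline mice 1, 2 and 3 and 320, 368 and 342 CPM in treated mice 16, 17 and 18. Every treated mouse was well above every saline mouse, and saline mouse 3 stood between saline mice 1 and 2. The log2 fold change of Per1 was 1.31 (SE 0.25) with all 6 mice and 1.25 (SE 0.18) without saline mouse 3, with adjusted p values of 0.914 and 0.297 by edgeR, and DESeq2 gave an adjusted p of 0.00209. Per2, its close relative in the same repressor complex, had 51.4, 63.5 and 61 CPM in the saline mice and 96.1, 100 and 132 CPM in the treated mice. The groups did not overlap in Per2 either, at a log2 fold change of 0.90 (SE 0.23), or 0.93 (SE 0.17) without saline mouse 3. On library sizes of all 18 female mice, Per1 ran from 324 to 376 CPM in 9527+oil. It ran from 142 to 429 CPM with Corexit 9500 and from 122 to 485 CPM with 9500+oil, and reached 258 CPM with oil and 271 CPM with Corexit 9527. Per2 reached 133 CPM in 9527+oil and 159 CPM in 9500+oil. High levels were therefore not particular to 9527+oil.

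The upstream 250 bases of clock genes are shown because the E-box, the CACGTG sequence that CLOCK and BMAL1 bind, can be read in them. The sequences are from RefSeq (GRCm38.p6), run 5′ to 3′ on the strand of the gene and end at the base before the transcript start, with CACGTG in capitals. CACGTG reads the same on both strands. Of 15 clock repressors and outputs, 12 had a promoter in the RefSeq table used here, and 5 of these 12 held a CACGTG, against 6.02% of all 32851 promoter windows of that length. Per1, Tef and Ciart were chosen among the 5 because the treated mice lay above all saline mice in each. The windows of Cry2, Per3 and Dbp, in which the treated mice also lay above all saline mice, held no CACGTG.

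Per1, chr11:69098699-69098948, plus strand: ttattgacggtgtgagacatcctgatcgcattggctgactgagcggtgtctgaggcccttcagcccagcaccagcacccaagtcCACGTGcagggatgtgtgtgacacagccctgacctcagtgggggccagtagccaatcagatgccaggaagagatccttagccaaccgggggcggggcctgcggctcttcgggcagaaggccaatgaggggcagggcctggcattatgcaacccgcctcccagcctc

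Ciart, chr3:95882229-95882478, minus strand: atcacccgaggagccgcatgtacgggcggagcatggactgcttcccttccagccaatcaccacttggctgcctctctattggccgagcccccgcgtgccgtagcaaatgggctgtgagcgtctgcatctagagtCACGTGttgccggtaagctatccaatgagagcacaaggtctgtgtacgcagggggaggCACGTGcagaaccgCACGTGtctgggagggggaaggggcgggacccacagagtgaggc

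Tef, chr15:81802423-81802672, plus strand: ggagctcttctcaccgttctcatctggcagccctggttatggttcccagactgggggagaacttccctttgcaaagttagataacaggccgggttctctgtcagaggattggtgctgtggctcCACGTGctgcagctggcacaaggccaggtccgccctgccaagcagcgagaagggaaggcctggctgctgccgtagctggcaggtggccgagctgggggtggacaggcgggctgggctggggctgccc

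Per1 has 2 windows in the table, of which the 1 with a match is shown, and Tef has 2, both with a match, of which 1 is shown. The Per1 window holds 1 match, the Tef window shown holds 1 and that of Ciart 3. A match describes these letters and does not show that a protein was bound there in these lungs. Ciart, a further repressor of CLOCK and BMAL1, had 15.4, 19.1 and 3.77 CPM in the saline mice against 25.4, 20.5 and 30.6 CPM in the treated mice. Tef, a transcription factor of the clock output, had 194, 203 and 45.1 CPM against 259, 250 and 252 CPM. In both genes saline mouse 3 was far below the other saline mice, and without it the log2 fold change was 0.57 (SE 0.19) for Ciart and 0.36 (SE 0.10) for Tef. Cry2 and Per3 showed the same order of the groups. Cry2, the partner of the Per proteins, had 54.8, 61.3 and 42.6 CPM in saline mice and 73.5, 75 and 82 CPM in treated mice. Per3 had 67.2, 72.4 and 34.6 CPM in saline mice and 95.2, 86.6 and 86.3 CPM in treated mice. The log2 fold changes without saline mouse 3 were 0.41 (SE 0.10) for Cry2 and 0.36 (SE 0.10) for Per3.

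Of 20 tested clock genes, 12 had a positive log2 fold change and 8 a negative value with all 6 mice, 2 passed an unadjusted p under 0.05 as higher (Per1 and Per2) and none as lower, and the median was 0.26 against 0.09 over all genes. In the fit without saline mouse 3, 15 of 20 were positive, 10 passed that threshold as higher (6.35% of all genes did) and none as lower, and the median was 0.36 against -0.01 over all genes. By role, 10 of the 11 repressors and all 4 outputs (Dbp, Tef, Hlf and Wee1) were positive without saline mouse 3, whereas 4 of 5 tested activators were negative, with a median of -0.47. None of the 5 activators passed as lower there and 1 passed as higher, and with all 6 mice their median was -0.05. Clock, an activator, had 33.3, 15.8 and 60 CPM in saline mice and 15.4, 17.7 and 20 CPM in treated mice, so that the groups overlapped. Dbp, an output factor, was at 0 in saline mouse 3 and at 86 and 85.2 CPM in saline mice 1 and 2, against 134, 101 and 100 CPM in treated mice. Hlf is an output whose direction rests on that library: it had 45.3, 38.3 and 124 CPM in saline mice and 65.5, 60.1 and 74.7 CPM in treated mice, a log2 fold change of -0.05 (SE 0.49) with saline mouse 3 and 0.68 (SE 0.13) without it. The hour at which the mice were killed is not given in the sources used here.

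Genes known to respond to glucocorticoids showed higher values in the treated mice in part. Hif3a, a relative of the hypoxia factors, had 4.3, 3.49 and 3.53 CPM in the saline mice and 6.77, 9.25 and 9.49 CPM in the treated mice, a log2 fold change of 1.17 (SE 0.33). Map3k6, a kinase of the stress pathway, had 19.9, 26.2 and 16.8 CPM against 29.1, 38.9 and 55.7 CPM, at 0.98 (SE 0.34). Neither gene had overlapping groups. Tsc22d3, which encodes the glucocorticoid-induced leucine zipper, had 271, 186 and 305 CPM in saline mice and 388, 315 and 371 CPM in treated mice. Klf9, a transcription factor, had 157, 126 and 235 CPM in saline mice and 232, 282 and 235 CPM in treated mice, with saline mouse 3 inside the range of the treated group. The log2 fold change was 0.49 (SE 0.27) for Tsc22d3 and 0.53 (SE 0.30) for Klf9, and 0.65 (SE 0.18) and 0.82 (SE 0.15) without saline mouse 3. Of the 18 genes of this list, which also holds Per1 and Lcn2, 11 were positive and 7 negative, 3 passed an unadjusted p under 0.05 as higher and 1 as lower, and the median was 0.22. The same numbers without saline mouse 3 were 12, 6, 7 and 2, and the median was 0.29. Over all genes 0.242% passed as higher and 0.861% as lower with all 6 mice, at a median of 0.09. Without saline mouse 3 these shares were 6.35% and 5.96%, at a median of -0.01.

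**Figure D1:**
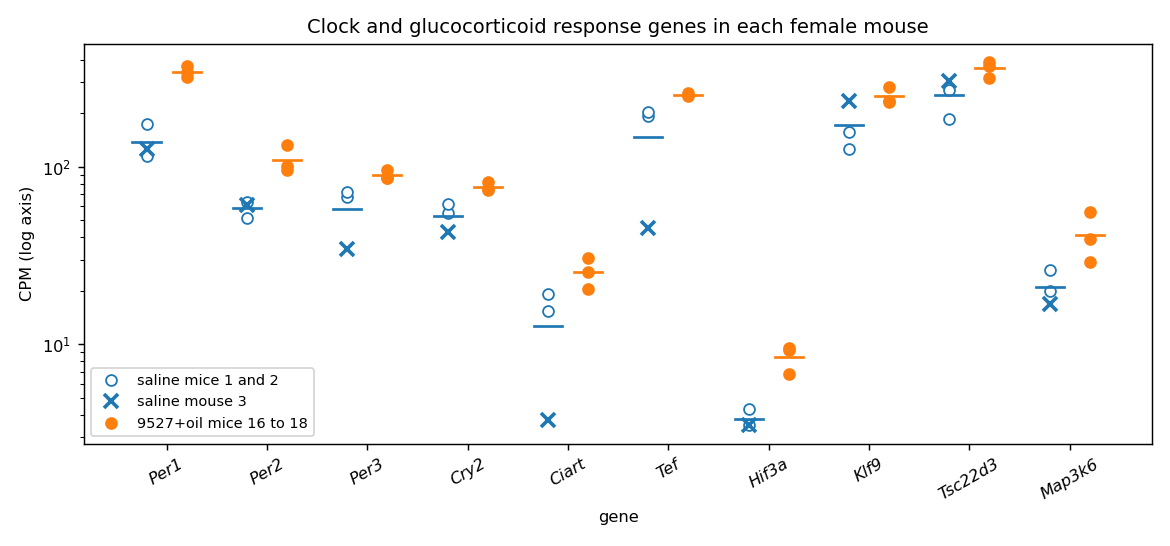
Levels of 10 clock and glucocorticoid response genes in CPM on a log axis, with a point for each female mouse and a horizontal line at the mean of each group. Open circles are saline mice 1 and 2, crosses are saline mouse 3 and filled circles are 9527+oil mice 16 to 18. Per1 stands at 115 to 174 CPM in saline and 320 to 368 CPM in treated mice, while in Tef and Ciart the cross lies far below the open circles.

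Outside these lists, 9 further genes were higher in every treated mouse and among those with the smallest unadjusted p, although none passed an adjusted p under 0.05 by edgeR. Adnp, a chromatin regulator and homeobox protein, had 17.7, 11.7 and 9.77 CPM in the saline mice and 30.3, 44.6 and 36.1 CPM in the treated mice, a log2 fold change of 1.34 (SE 0.23) without saline mouse 3, and DESeq2 gave it an adjusted p of 0.0424 with all 6 mice. Pde4a, which degrades cyclic AMP, had 33.2, 32.4 and 25.7 CPM against 50.3, 50.8 and 47 CPM, at 0.70 (SE 0.22). Rere, a corepressor and coactivator of nuclear receptors, had 182, 159 and 142 CPM against 238, 303 and 246 CPM, at 0.70 (SE 0.23). Every treated mouse was above every saline mouse in each of these genes. The same held for Zfpm1, a partner of GATA factors, at 0.96 (SE 0.32), for Atxn2l, an RNA-binding protein of stress granules, at 0.81 (SE 0.26), for Pom121, a protein of the nuclear pore, at 0.86 (SE 0.29), for Arhgef37 at 1.23 (SE 0.39), for Enpp6, a choline-specific phosphodiesterase, at 1.48 (SE 0.48) and for AA986860 at 0.73 (SE 0.23). The log2 fold changes of these 9 genes and of Per1, Per2 and Hif3a kept their sign without saline mouse 3, with a smaller value in 11 of the 12 and a slightly larger one in Per2.

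Krcc1, a gene of chromosome 6 (chr6:71271677-71285319) whose product has a lysine-rich coiled coil, was the gene with the lowest adjusted p without saline mouse 3. It had 8.49 and 13.3 CPM in saline mice 1 and 2 and 453 CPM in saline mouse 3, against 0.385, 0.293 and 0.191 CPM in the treated mice. The log2 fold change was -9.06 (SE 2.09) with all 6 mice and -5.19 (SE 0.33) without saline mouse 3, where its adjusted p was 0.00637 by edgeR. The gene was not steady in the other groups of the series. On library sizes of all 18 female mice it ran from 0.353 to 42.7 CPM in the Corexit 9500 group and from 0 to 131 CPM in the 9500+oil group, while in male mice each of the 6 groups lay between 5.78 and 25.2 CPM. The other gene that passed without saline mouse 3 was Gm28439, a pseudogene on chromosome 1 inside a nuclear copy of mitochondrial DNA. It was at 0 CPM in saline mice 1 and 2, at 16490 CPM in saline mouse 3 and at 520, 1761 and 1009 CPM in the treated mice, and it was also at 0 in at least 1 mouse of each of the other 4 female groups. Reads of a near-identical mitochondrial gene can be assigned to such a copy or away from it, so no fold change is given. Micalcl, among the genes with the smallest unadjusted p, had 3.03, 4.22 and 10.2 CPM in saline mice and 0.803, 0.67 and 1.15 CPM in treated mice. Its log2 fold change was -2.72 (SE 0.63), and -2.05 (SE 0.34) without saline mouse 3. Tlr1, a receptor for bacterial lipoproteins, was at -1.36, Zfp654 at -2.52 and the pseudogene Rps6-ps4 at -2.29, all with no overlap between the groups. Saline mouse 3 was the highest mouse in each, and leaving it out gave -1.07, -1.30 and -1.60.

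A number of chemokines were at lower levels in every treated mouse than in any saline mouse. Cxcl10 and Cxcl9, which interferon induces and which attract T cells, and Cxcl13, which attracts B cells, did not overlap between the groups. Cxcl10 had 3.03, 6.79 and 5.53 CPM in saline mice and 1.89, 1.21 and 1.57 CPM in treated mice, a log2 fold change of -1.71 (SE 0.48). Cxcl9 had 5.42, 8.45 and 37.2 CPM against 1.41, 0.837 and 2.87 CPM, at -3.31 (SE 0.94). Cxcl13 had 3.94, 7.83 and 21.1 CPM against 1.41, 1.76 and 2.79 CPM, at -2.45 (SE 0.72). Saline mouse 3 was the highest mouse in Cxcl9 and Cxcl13, and without it the values were -2.02 (SE 0.45) and -1.57 (SE 0.38), with -1.65 (SE 0.37) for Cxcl10. The adjusted p of all 3 was 0.914 in the fit of 6 mice by edgeR. On library sizes of all 18 female mice, Cxcl10 ran from 1.17 to 1.92 CPM in the 9500+oil group, as low as in 9527+oil (1.24 to 1.92 CPM). It ran from 2.27 to 3.8 CPM in the oil group, from 1.43 to 5.9 CPM with Corexit 9500 and from 1.69 to 17.6 CPM with Corexit 9527.

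Some chemokines of neutrophils and monocytes showed the same order of the groups, at levels of a few CPM. Cxcl1, which attracts neutrophils, had 1.43, 2.63 and 2 CPM in saline mice and 0.385, 0.251 and 0.765 CPM in treated mice, at -2.10 (SE 0.64). Cxcl3, of the same family, had 0.757, 1.56 and 1.65 CPM against 0.128, 0.251 and 0.421 CPM, at -2.29 (SE 0.72). In both genes each saline mouse was above each treated mouse. Ccl7, a monocyte chemokine, had 1.24, 2.88 and 3.18 CPM against 0.161, 0.209 and 0.727 CPM, at -2.71 (SE 0.82). Ccl11, the eosinophil attractant eotaxin, had 5.14, 7.16 and 20 CPM against 3.82, 2.72 and 1.99 CPM, at -1.91 (SE 0.63), or -1.10 (SE 0.30) without saline mouse 3. Ccl9, a chemokine of myeloid cells, had 20.8, 25.8 and 21.4 CPM against 12.8, 16.5 and 11.2 CPM, at -0.75 (SE 0.27). Ccr1, a receptor of CC chemokines on myeloid cells, had 12.8, 14.9 and 16.5 CPM against 8.15, 8.75 and 9.1 CPM, at -0.76 (SE 0.27). None of these genes overlapped between the groups.

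The promoters of Cxcl1 and Cxcl10 are shown because both hold the kappaB sequence GGAANTTCC, a form of the site that NF-kappaB proteins bind, which was searched on both strands. The windows are the 250 bases before the transcript start as above, with the match in capitals. Of 8 chemokines looked up, 5 had a promoter in the table and 3 of these (Cxcl1, Cxcl3 and Cxcl10) held a match, against 0.813% of all 32851 windows.

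Cxcl1, chr5:90890995-90891244, plus strand: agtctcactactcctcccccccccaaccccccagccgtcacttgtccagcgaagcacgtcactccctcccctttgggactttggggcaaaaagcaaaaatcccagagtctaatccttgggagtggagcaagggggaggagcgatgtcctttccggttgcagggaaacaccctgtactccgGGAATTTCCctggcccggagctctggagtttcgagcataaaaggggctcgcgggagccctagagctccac

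Cxcl10, chr5:92348890-92349139, minus strand: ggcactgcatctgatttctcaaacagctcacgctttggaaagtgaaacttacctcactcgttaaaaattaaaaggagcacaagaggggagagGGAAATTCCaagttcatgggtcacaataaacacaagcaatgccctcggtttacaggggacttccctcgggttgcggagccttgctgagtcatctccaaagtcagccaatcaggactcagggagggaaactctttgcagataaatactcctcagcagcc

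As a group, 8 of 12 tested CXC and CX3C chemokines were negative, 5 passed an unadjusted p under 0.05 as lower and none as higher, and the median log2 fold change was -1.26. Against saline mice 1 and 2 alone, 11 of 13 were negative, 7 passed as lower and 1 as higher, against 5.96% and 6.35% of all genes, and the median was -0.26. That higher gene was Cx3cl1, the membrane-bound chemokine of endothelium and epithelium, with 85.4, 82.9 and 18.2 CPM in saline mice and 122, 147 and 112 CPM in treated mice. Among CC chemokines 11 of 16 were negative, 3 passed as lower, and the median was -0.40. Against saline mice 1 and 2, 14 of 16 were negative, 8 passed as lower and none as higher, and the median was -0.64. Ccl2, which recruits monocytes, had 1.35, 3.61 and 2.12 CPM in saline mice and 0.995, 0.837 and 1.15 CPM in treated mice, so that all treated mice lay below the saline mice, and the log2 fold change was -1.25 (SE 0.55). The cytokine Il1b had 10.8, 11.8 and 21.1 CPM against 7.77, 7.12 and 9.45 CPM, and its antagonist Il1rn 17, 22 and 61.9 CPM against 15.2, 15.7 and 13.4 CPM. Over the whole list of 164 cytokines and their receptors, however, 83 were positive and 81 negative, 10 passed as lower and none as higher, and the median of 0.01 became -0.05 with upper-quartile scaling. When saline mouse 3 was left out, 68 were positive and 99 negative, 28 passed as lower and 8 as higher, the latter a smaller share than over all genes, and the median was -0.05. The study named the pathway of cytokines and their receptors as lower in these same female samples, so its direction here is not independent evidence.

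Several genes of alternatively activated macrophages and of alveolar macrophages also had lower levels in every treated mouse. Retnla, a secreted protein induced by interleukin-4 and interleukin-13, had 105, 541 and 329 CPM in the saline mice and 39, 32.6 and 64.5 CPM in the treated mice, a log2 fold change of -2.84 (SE 0.66). Chil4, a chitinase-like protein of the same response, had 1.16, 27.1 and 12.7 CPM against 0.482, 0.377 and 0.421 CPM, at -4.98 (SE 1.16). In both, the saline mice were widely spread and all above the treated mice. Chil3, a chitinase-like protein abundant in alveolar macrophages, had 368, 408 and 281 CPM against 240, 239 and 220 CPM, at -0.60 (SE 0.24). Ear2, a ribonuclease of macrophages and eosinophils, had 77, 70.3 and 128 CPM against 50.8, 41.2 and 42.2 CPM, at -1.04 (SE 0.30). DESeq2 gave adjusted p values of 0.0424 for Retnla and 0.00209 for Chil4. Of 13 tested genes of alternative activation, 12 were negative, 4 passed an unadjusted p under 0.05 as lower and none as higher, and the median was -0.60. With saline mice 1 and 2 alone as controls 11 were negative, 8 passed as lower (5.96% of all genes did) and 1 as higher, and the median was -0.64.

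The summed level of the 7 markers of alveolar macrophages was 523, 569 and 517 CPM in the saline mice and 360, 343 and 318 CPM in the treated mice. The groups did not overlap, all 7 markers had a negative log2 fold change in both fits, and 3 passed an unadjusted p under 0.05 in each. Over all genes 0.861% passed as lower with all 6 mice and 5.96% without saline mouse 3. Fabp1, a lipid-binding protein among these markers, had 9.68, 7.16 and 8 CPM in saline mice and 4.3, 4.61 and 4.17 CPM in treated mice, at -0.93 (SE 0.31). Marco, the scavenger receptor of these cells, overlapped, with 27.2, 39.1 and 30.5 CPM against 32.3, 24.1 and 16.5 CPM. The 7 markers include Chil3 and Ear2, named above, which supply most of the sum, so it is not separate from those genes. The sum moved with the other macrophage and chemokine genes above, and its part in their values was not tested. The summed markers of monocytes and interstitial macrophages were at 1149, 790 and 128 CPM in saline mice and 1061, 916 and 864 CPM in treated mice, and those of neutrophils at 140, 152 and 202 CPM against 149, 152 and 171 CPM, so that both overlapped. The markers of alveolar type 2 cells, the surfactant proteins among them, summed to at least 9320 CPM in each of the 6 mice, so the tissue label was met by its markers.

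**Figure D2:**
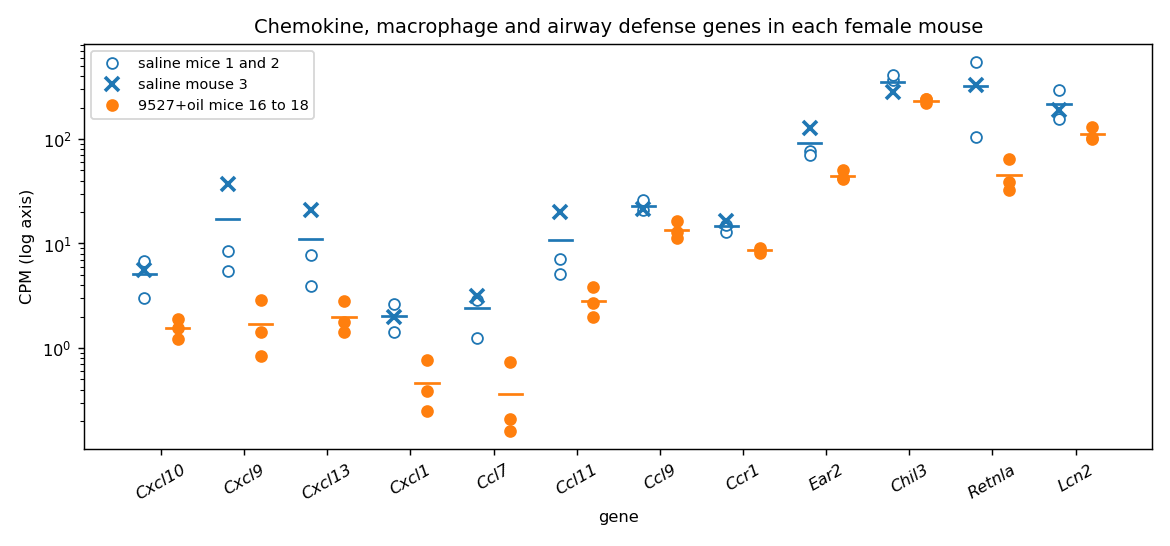
Levels of 12 chemokine, macrophage and airway defense genes in CPM on a log axis, with a point for each female mouse and a horizontal line at the mean of each group. In all 12 genes the 3 filled circles (9527+oil) lie below the 3 saline points, and the cross of saline mouse 3 is the highest point in Cxcl9, Cxcl13, Ccl7, Ccl11, Ccr1 and Ear2.

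Airway defense genes showed the same order of the groups in part. Lcn2, a siderophore-binding protein of epithelium and neutrophils, had 156, 296 and 191 CPM in saline mice and 102, 101 and 129 CPM in treated mice, at -0.96 (SE 0.31). Saa3, an acute phase protein, had 10, 48.9 and 4.12 CPM against 1.19, 2.09 and 3.98 CPM, at -3.12 (SE 1.04). Timp1, an inhibitor of matrix proteases, had 12.7, 30.6 and 21.7 CPM against 8.67, 6.95 and 10.6 CPM, at -1.31 (SE 0.41). Saline mouse 2 was the highest mouse in all 3 genes, and no treated mouse reached the saline range. Leaving out saline mouse 2, the log2 fold change of Saa3 was -1.55, the log2 fold change of Timp1 was -0.97 and the log2 fold change of Lcn2 was -0.65, each with an unadjusted p above 0.05 by edgeR. Pigr, which carries IgA across the epithelium, had 130, 242 and 133 CPM against 105, 116 and 96.3 CPM. The mucin Muc5ac and the lectin Reg3g overlapped: Muc5ac had 8.96, 48.7 and 221 CPM against 10.6, 12.6 and 13.3 CPM, and Reg3g had 29, 102 and 90.6 CPM against 27.7, 28 and 37.8 CPM. For both, the lower mean of the treated group rested on saline mice 2 and 3, since against saline mouse 1 alone the log2 fold change was 0.44 for Muc5ac and 0.11 for Reg3g. Of 23 tested genes of this list 15 were negative, 4 passed an unadjusted p under 0.05 as lower and none as higher, and the median was -0.40 (-0.22 without saline mouse 3). Without saline mouse 3, 6 passed as lower and 1 as higher. Over all genes 0.861% passed as lower and 0.242% as higher with all 6 mice, and 5.96% and 6.35% without saline mouse 3.

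Antibody genes were also lower in part. Igkc, the kappa light chain, had 179, 131 and 122 CPM in saline mice and 109, 68.9 and 80.1 CPM in treated mice, at -0.74 (SE 0.28). Ighg1 had 0.996, 1.16 and 2 CPM against 0.417, 0.293 and 0.306 CPM, at -1.99 (SE 0.59). Ighg3 ranged over more than an order of magnitude among the saline mice, at 16.9, 0.581 and 6.94 CPM, and had 0.417, 0.126 and 0.535 CPM in the treated mice. Of 9 tested constant region genes 7 were negative and 3 passed an unadjusted p under 0.05 as lower, against 0.861% of all genes. Without saline mouse 3 all 9 were negative and 3 passed as lower, against 5.96% of all genes. The 57 tested variable region genes had 34 positive and 23 negative values, and without saline mouse 3 14 of 71 were positive. Variable genes share sequence, and their reads may be split between them. B cell markers summed to 337, 210 and 325 CPM in saline mice and 299, 213 and 171 CPM in treated mice and overlapped, and plasma cell markers to 555, 408 and 191 CPM against 509, 420 and 391 CPM, also with overlap. Of 4 tested plasma cell markers, which include the constant regions Ighm and Igha, 3 were positive with all 6 mice (median 0.22) and none without saline mouse 3 (median -0.13).

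Signaling pathways of tissue growth were named in the study from these same samples, so the direction of their lists here is not independent evidence. Notch receptors are cut after they meet a ligand on a neighboring cell, and the freed fragment works with RBPJ in the nucleus. Notch1 had 229, 214 and 77 CPM in saline mice and 305, 431 and 336 CPM in treated mice, at 1.04 (SE 0.45). Notch3 had 118, 122 and 46.2 CPM against 159, 206 and 157 CPM, Notch2 140, 126 and 61.3 CPM against 156, 179 and 148 CPM, and Notch4 115, 135 and 10.6 CPM against 170, 192 and 190 CPM. In all 4 receptors every treated mouse was above every saline mouse, and saline mouse 3 was the lowest. The size of the difference rested on that mouse: Notch4 was at 1.09 (SE 0.83) with it and 0.57 (SE 0.12) without it, and Notch1 at 0.69 (SE 0.16) without it. The ligand Dll4 had 74.8, 79.9 and 9.77 CPM against 96.2, 108 and 98.9 CPM. Spen, a corepressor in the nucleus, had 96.9, 86.4 and 48 CPM against 133, 182 and 137 CPM, at 0.97 (SE 0.33). Hdac2, a histone deacetylase of corepressor complexes, lay the other way, at 57.8, 58.9 and 499 CPM against 45.7, 42.5 and 50.6 CPM.

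Of 50 tested Notch pathway genes 38 were positive and 12 negative, 1 passed an unadjusted p under 0.05 as higher, and the median was 0.41. Without saline mouse 3, 39 were positive, 17 passed as higher and 1 as lower, and the median was 0.21. By role, without saline mouse 3, 3 of 4 receptors, 2 of 4 ligands, 7 of 15 modulators, 5 of 16 nuclear factors and none of the 6 gamma-secretase genes and 5 targets passed as higher, against 6.35% of all genes in that fit. The targets of the pathway had a median of 0.15 there. The Hippo pathway, a kinase cascade that holds the coactivators YAP and TAZ out of the nucleus, had 32 positive and 21 negative values among 53 genes, with none passing, and without saline mouse 3 it had 39 positive values and 10 that passed as higher, against the same 6.35%. Ajuba, an inhibitor of the cascade, had 27.9, 26.5 and 3.77 CPM in saline mice and 39.2, 47.1 and 37.6 CPM in treated mice. Ctgf, a target of YAP, had 220, 140 and 137 CPM against 305, 212 and 298 CPM and overlapped. Wwc2, an upstream scaffold of the cascade, had 111, 115 and 87.1 CPM against 133, 150 and 139 CPM.

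Other growth and adhesion lists showed medians of the same sign. The Wnt list had 56 positive and 27 negative values among 83 genes and a median of 0.35, with none passing, and without saline mouse 3 a median of 0.12 and 13 genes that passed as higher, against 6.35% of all genes. The median of the axon guidance list was 0.45 over 68 genes, and 0.18 without saline mouse 3. Ntn1, a guidance protein that also acts in epithelial branching, had 109, 101 and 80.6 CPM in saline mice and 158, 172 and 127 CPM in treated mice, at 0.65 (SE 0.24), and Sema3f, a secreted semaphorin, had 118, 140 and 55.9 CPM against 156, 188 and 186 CPM. Focal adhesion genes, which link integrins to the actin skeleton, had 61 positive values of 81 and a median of 0.35, and 68 of 82 and 0.18 without saline mouse 3. Actn4, an actin crosslinker, had 467, 436 and 279 CPM against 535, 630 and 555 CPM, and Tln1, which couples integrins to actin, had 442, 498 and 76.2 CPM against 521, 615 and 513 CPM. In both genes the treated mice were above all saline mice. MAPK genes had a median of 0.18 (0.05 without saline mouse 3) and actin regulators of 0.20 (0.07). GC content moved with these values, as seen over genes with a known GC content and a mean log2 CPM above 1. Their median log2 fold change ran from -0.51 in the GC-poorest quartile to 0.50 in the GC-richest with all 6 mice. Without saline mouse 3 it ran from -0.05 to 0.12. The median GC content was 53.9% in the Notch list and 55.3% in the axon guidance list, against 49.9% over all genes. The part of GC content in the list medians was not tested.

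Nuclear genes of oxidative phosphorylation and of the cytoplasmic ribosome were lists whose values turned on saline mouse 3. The study named both pathways as lower in these same female samples, so their direction here is not independent evidence. With all 6 mice, 37 of 79 oxidative phosphorylation genes were positive and 42 negative, with a median of -0.04. Leaving saline mouse 3 out, 3 were positive and 76 negative, 37 passed an unadjusted p under 0.05 as lower, against 5.96% of all genes, and 1 as higher, and the median was -0.34. All 34 genes of complex I, 4 of complex II and 9 of complex III were negative there, as were 15 of 16 of complex IV and 14 of 16 of complex V. Cox7b, a subunit of complex IV, had 35.8, 35.2 and 37.9 CPM in saline mice and 26, 18 and 24.6 CPM in treated mice, at -0.67 (SE 0.24). Uqcrh, of complex III, had 90, 78.6 and 121 CPM against 65.5, 39 and 60.6 CPM, at -0.81 (SE 0.30). Atp5h, of the ATP synthase, had 79.4, 94.8 and 93.5 CPM against 59.5, 46.5 and 70.4 CPM, at -0.60 (SE 0.24). Ndufv3, of complex I, had 45.7, 41 and 66.1 CPM against 33.3, 33.8 and 29.2 CPM, at -0.67 (SE 0.27). In these 4 genes saline mouse 3 lay within or above the range of the other saline mice, and the groups did not overlap.

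Of 80 ribosomal protein genes 42 were positive and 38 negative with all 6 mice, and the median of 0.03 turned to -0.02 with upper-quartile scaling. Without saline mouse 3, 77 of 80 were negative, 38 passed an unadjusted p under 0.05 as lower, against the same 5.96%, and none as higher, and the median was -0.35 (-0.39 with upper-quartile scaling). Rpl39 had 47.1, 30 and 48.9 CPM in saline mice and 29.5, 24.5 and 20.7 CPM in treated mice, and Rpl23a had 418, 312 and 431 CPM against 298, 206 and 250 CPM. In both genes the treated mice were below all saline mice. The summed ribosomal proteins were at 17244, 14953 and 6332 CPM in saline mice and at 13560, 11167 and 13177 CPM in treated mice, with treated mouse 17 the lowest of its group. Ribosomal protein genes have many near-identical pseudogenes, between which reads can be split. Both lists consist of short transcripts, with a median length of 1001 and 1076 bases against 3331 over all genes. Genes with a known length and a mean log2 CPM above 1 were divided into quartiles of transcript length. Without saline mouse 3 their median log2 fold change ran from -0.15 in the shortest to 0.09 in the longest quartile. Transcript length thus moved with this result, and its part was not tested. The 13 genes of the mitochondrial genome had a median of -2.23 with all 6 mice and 0.24 without saline mouse 3, which is the quantity that sets that library apart.

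**Figure D3:**
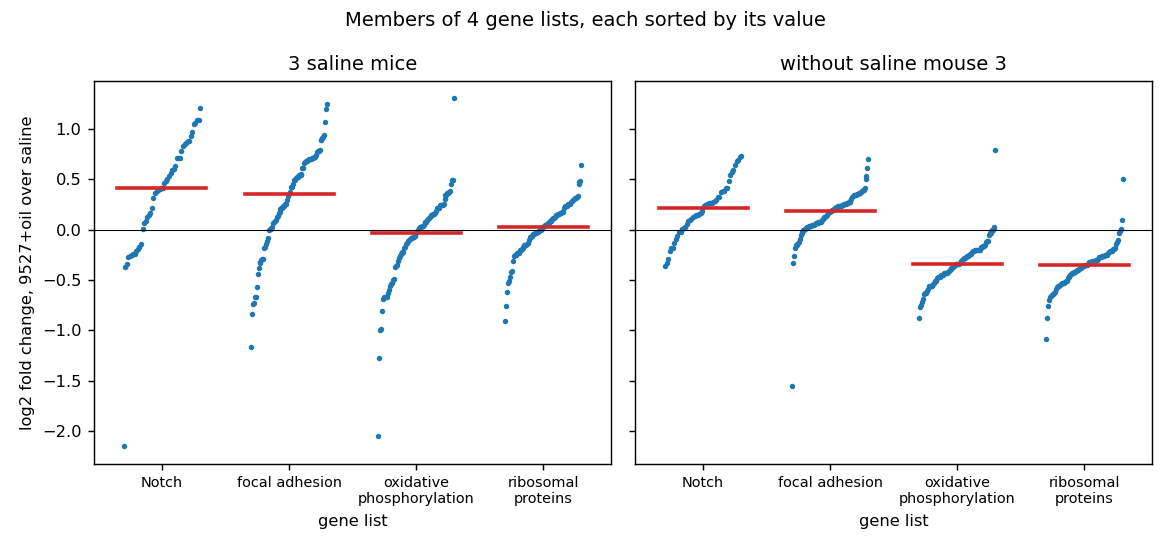
Log2 fold changes of each tested member of 4 gene lists, sorted within the list, with 3 saline mice on the left and without saline mouse 3 on the right. The red line is the median of the list: oxidative phosphorylation lies at -0.04 on the left and -0.34 on the right, and Notch at 0.41 and 0.21.

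Nnt and Fdft1 were further metabolic genes with no overlap between the groups. Nnt, the mitochondrial transhydrogenase that makes NADPH, had 23.6, 23.5 and 47.5 CPM in saline mice and 12.4, 8.46 and 10.5 CPM in treated mice, at -1.59 (SE 0.39), or -1.17 (SE 0.17) without saline mouse 3. Fdft1, which makes squalene in cholesterol synthesis, had 25.3, 24.5 and 58.4 CPM against 14.4, 10.3 and 10.5 CPM, at -1.62 (SE 0.44), or -1.08 (SE 0.17) without saline mouse 3. Insig1, a sterol sensor, had 73.4, 65.9 and 91.7 CPM against 51.6, 55.8 and 50.3 CPM, at -0.55 (SE 0.22). The cholesterol list as a whole was divided, with 15 positive and 11 negative values of 26 and a median of 0.10, and without saline mouse 3 with 7 positive and 19 negative values and a median of -0.11. Fabp5 and Fabp3, which bind fatty acids in the cytoplasm, had lower levels in every treated mouse than in any saline mouse: Fabp5 had 75.7, 83.3 and 79.9 CPM in saline mice and 57.7, 50.7 and 59.8 CPM in treated mice, and Fabp3 had 21.5, 17.6 and 25.3 CPM against 13.3, 15.4 and 10.5 CPM. Their log2 fold changes were -0.51 (SE 0.19) and -0.72 (SE 0.29). Of 39 genes of fatty acid metabolism 3 passed an unadjusted p under 0.05 as lower with all 6 mice and 12 without saline mouse 3, where 30 of 39 were negative and the median was -0.20. Over all genes the share that passed as lower was 0.861% with all 6 mice and 5.96% without saline mouse 3.

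Aromatic hydrocarbons of oil bind the aryl hydrocarbon receptor, which switches on Cyp1a1. Cyp1a1 had 3.71, 1.16 and 3.41 CPM in the saline mice and 60.2, 4.86 and 8.61 CPM in the treated mice, a log2 fold change of 3.16 (SE 1.11). Every treated mouse was above every saline mouse, and treated mouse 16 stood far above mice 17 and 18. Without treated mouse 16, the log2 fold change of Cyp1a1 was 1.30, with an unadjusted p of 0.128 by edgeR. On library sizes of all 18 female mice the saline group ran from 1.18 to 3.77 CPM, the oil group from 3.69 to 5.97 CPM, overlapping saline, and the 9500+oil group from 5.75 to 7.35 CPM. In male mice Cyp1a1 had 28.7, 27.2 and 21.04 CPM in saline mice and 219, 19.98 and 20.95 CPM in treated mice. Male treated mice 17 and 18 were thus below every male saline mouse. On library sizes of all 18 male mice, the highest male mouse given Corexit 9527 without oil stood at 264 CPM. The male oil group ran from 15.3 to 22.8 CPM. Of 7 targets of the receptor tested in the female mice 5 were positive, and Cyp1a1 alone passed an unadjusted p under 0.05. The carboxylesterases Ces1f and Ces1g, which hydrolyze esters of foreign compounds, were highest in female treated mouse 16: Ces1f had 5.14, 5.48 and 3.41 CPM in saline mice and 21.3, 5.9 and 5.81 CPM in treated mice, and Ces1g had 2.23, 2.11 and 4.24 CPM against 15.1, 3.56 and 3.71 CPM. Only Ces1g overlapped of this pair. Without treated mouse 16, the log2 fold change of Ces1f was 0.33 and the log2 fold change of Ces1g was 0.36. Among the 21 tested targets of Nrf2, the factor of the oxidative stress response, none passed in either direction with all 6 mice, and 13 were positive. Bag3, a cochaperone, had 112, 93.9 and 93.1 CPM against 131, 166 and 149 CPM, and it alone of 32 genes of the heat shock and unfolded protein responses passed an unadjusted p under 0.05.

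In other lists few genes passed an unadjusted p under 0.05 with all 6 mice. Of 26 cell division genes 18 were negative, none passed an unadjusted p under 0.05 and the median was -0.51, which became -0.13 without saline mouse 3. Nusap1, a spindle protein, had 9.48, 7.13 and 16.7 CPM in saline mice and 6.07, 4.15 and 6.54 CPM in treated mice. The median was -0.06 over 33 DNA replication genes, -0.05 over 23 p53 targets and -0.09 over 29 interferon-induced genes. When saline mouse 3 was left out these medians were -0.12, 0.06 and -0.06, with 26 of 33 DNA replication genes negative and 4 of 24 p53 targets passing as higher. Over all genes of that fit 6.35% passed as higher and 5.96% as lower. Irgm2, a GTPase induced by interferon, had 66.9, 71.1 and 67.7 CPM against 101, 83.4 and 107 CPM and was the only gene of that list to pass. None of the 10 tested MHC class II genes and 20 complement genes passed with all 6 mice, and without saline mouse 3 6 of the 20 complement genes passed as lower. The median of the MHC class II genes was 0.22 with all 6 mice and -0.18 without saline mouse 3, where 2 passed as lower and 1 as higher.

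**Figure D4:**
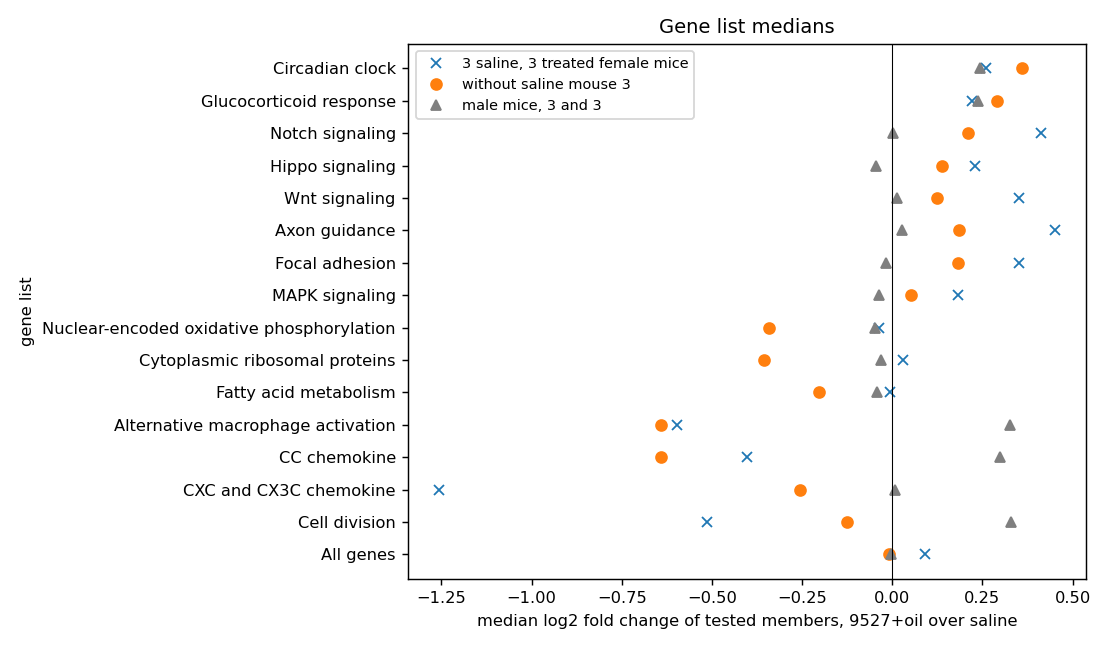
Median log2 fold change of 9527+oil over saline of the tested members of 15 gene lists and of all genes. Crosses are the 6 female mice, orange circles are the female mice without saline mouse 3 and grey triangles are the 6 male mice. Oxidative phosphorylation lies at -0.34 without saline mouse 3 and near 0 in the other 2 comparisons, and the CC chemokines lie at -0.40 and -0.64 in female mice and at 0.30 in male mice.

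Male mice of the same 2 treatments share no animal with this comparison and had 5.27 to 7.68% of counts on mitochondrial genes. Among 14954 genes tested in them 530 (3.54%) were higher and 299 (2%) lower at an unadjusted p under 0.05. Per1 lay at 187, 128 and 182 CPM in male saline mice and 113, 272 and 310 CPM in male treated mice and overlapped, at 0.48 (SE 0.33). Per2 was at 0.52 (SE 0.48) in male mice. The median of the clock list was 0.24 in male mice, and Dbp was at 1.68, with an unadjusted p of 0.00371 by edgeR. The immune genes had other values in male mice. Lcn2 had 139, 150 and 126 CPM in male saline mice and 168, 321 and 256 CPM in male treated mice, at 0.84 (SE 0.21), and Retnla had 29.6, 23.6 and 32.6 CPM against 19, 55.8 and 151 CPM, at 1.40 (SE 0.60). Alternative activation genes had a median of 0.33, CC chemokines of 0.30 and neutrophil markers of 1.54 in male mice. For Lcn2 the groups did not overlap in either sex and lay in opposite order.

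The interaction of sex and treatment tests whether the difference itself differs between the sexes. Among 12 mice 368 of 15417 genes (2.39%) passed an unadjusted p under 0.05 and none an adjusted p under 0.05 by edgeR, and without female saline mouse 3, 1051 of 15620 (6.73%) passed the former and Krcc1 alone the latter. For Lcn2 the female value minus the male value was -1.87 without that mouse (unadjusted p 0.000339). It was -4.23 for Retnla, -1.91 for Timp1, -1.57 for Ccl9, -2.06 for Ccr1 and -1.81 for Marco. The 8 markers of monocytes and interstitial macrophages had a median difference of -0.74, and 4 of them passed an unadjusted p under 0.05 as lower in female mice. With all 12 mice their median was -0.22 and none passed. The part of such cells in these values was not tested. In the interaction without that mouse, 8 of 13 alternative activation genes passed an unadjusted p under 0.05 with a lower value in female mice and none with a higher value, as did 8 of 18 CC chemokines, 18 of 80 oxidative phosphorylation genes and 18 of 83 ribosomal protein genes. Of 53 Hippo genes 11 passed with a higher value in female mice. With all 12 mice these counts were 3 alternative activation genes, 5 CC chemokines, 4 oxidative phosphorylation genes, 1 ribosomal protein gene and no Hippo gene. Male and female mice were deposited in separate tables and numbered separately, so sex and handling cannot be told apart.

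The 9527+oil mice were also set against the 3 female mice given Corexit 9527 without oil, a comparison that uses the same treated mice. With all 6 mice none of 14989 genes passed an adjusted p under 0.05 by edgeR, and 997 passed an unadjusted p under 0.05, and DESeq2 called 168. Mouse 11 of the Corexit 9527 group had 38.4% of its counts on mitochondrial genes, and without it 18 of 15325 genes (0.117%) were higher and 98 (0.639%) lower in 9527+oil at an adjusted p under 0.05. All 26 cell division genes were negative there and 16 of them passed, with a median log2 fold change of -1.53, as were all 33 DNA replication genes, of which 8 passed. With mouse 11 included, all 26 and 30 of the 33 were negative, with medians of -1.79 and -0.84, and none passed. Mki67, which marks cycling cells, was at -1.51 (SE 0.14) and Top2a, the mitotic topoisomerase, at -1.72 (SE 0.24). The macrophage genes Retnla and Chil3 were at -4.75 (SE 0.50) and -2.46 (SE 0.29), with adjusted p values of 0.0253 and 0.0269. With mouse 11 included the log2 differences of these 4 genes were -1.78, -1.90, -4.57 and -2.32.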

How the data were processed

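Lung RNA of 36 mice was measured by stranded mRNA sequencing. Per the study's methods, RNA with an integrity number of at least 8 was used, and the authors quantified reads with Salmon on GRCm38 transcripts and made a count matrix with tximport, described as holding transcript IDs; the deposited values are estimated counts (expected counts), here whole numbers, 1 table for each sex. The deposited rows carry gene symbols, and how transcripts became symbols is not given in the sources used here. Among the female rows, 4 that share a date-like name with another row were left out (0.0103% of counts). Groups were taken from the labels.

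Counts were tested with edgeR 4.0.16 in R 4.3.3 (TMM factors, its expression filter, prior count 2, quasi-likelihood test, Benjamini-Hochberg adjustment), with 3 treated against 3 saline mice, and again without the library holding over 20% of counts on mitochondrial genes. Alternatives were DESeq2 1.42.0, limma 3.58.1 (voom with quality weights), other scalings and filters, a fit of all 6 female groups, and each mouse left out. The fits were tested on simulated data, whose mean levels came from the libraries other than saline mouse 3. No simulated library had the mitochondrial share or GC shift of that mouse, so this check does not cover its influence. Symbols were matched to GENCODE M21 for length and GC content in 17283 of 18116 genes (95.4%). No pair of the 6 libraries agreed within sampling noise (lowest chi-square per gene 19.9 over 15 pairs). The labels name no litter or cage, and p-values measure the spread between these mice.

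Named genes were, among those with a mean log2 CPM of at least 1 and no overlap between the groups, the 12 higher and 12 lower with the smallest p and the genes passing an adjusted p without saline mouse 3 (up to 8 in each direction). The 4 tested members of each list with the smallest p were added whether or not they met those conditions. All members were added for the shortest lists, which were the mitochondrially encoded, MHC class II and alternative macrophage activation genes. Gm28439 and the other genes named were chosen after their values were seen. Members and lists were chosen with earlier results of these data known. Promoter windows of 250 bases came from RefSeq (GRCm38.p6).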

Additional observations from a re-analysis of the deposited data

Results flagged for a closer look

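Krcc1 stood out because the difference between 9527+oil and saline was not the same in the 2 sexes. The female minus the male log2 fold change was -5.05 (SE 0.48) when female saline mouse 3 was left out, and its adjusted p in edgeR's interaction test was 0.00516. The male levels were 15, 8.56 and 17.6 CPM in saline mice and 11.6, 15.4 and 10.6 CPM in treated mice and overlapped. The 3 female treated mice lay below 0.4 CPM, as did the lowest mice of the female Corexit 9500 and 9500+oil groups, so a low level of Krcc1 was not particular to 9527+oil. The cause was not tested.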

How the results depend on the processing

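No paired analysis was possible because the mouse numbers of the labels run through the groups and no number is shared between those compared. With all 6 mice, genes higher and lower at an adjusted p under 0.05 were 0 and 0 by edgeR, 3 and 14 by DESeq2 and 2 and 4 by voom with quality weights. Leaving out 1 mouse gave 0 to 1 in each direction. At an unadjusted p under 0.05 the numbers higher and lower were 36 and 128 by edgeR, 135 and 498 by DESeq2, and 743 and 875 by voom. No filter on low counts gave 76 higher genes, at least 10 counts in every mouse 236 lower genes, and all female groups in 1 fit 384 lower genes. Leaving out 1 mouse gave 8 (without treated mouse 17) to 962 (without saline mouse 3) higher and 22 to 903 lower genes. In settings chosen after seeing the data, adjusted calls higher and lower were 166 and 76 by DESeq2 without saline mouse 3 (1089 and 793 unadjusted), and 5 and 3 without saline mice 2 and 3 (894 and 832), where the lone saline mouse is taken to vary like the treated group. Without saline mouse 3 they were 1 and 1 with DESeq2 size factors (997 and 871 unadjusted) and 1 and 1 with upper-quartile factors (676 and 1197).

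The interaction with sex had 0 adjusted calls with all mice, 13 by DESeq2, and 0 to 1 with a mouse left out. The comparison with Corexit 9527 had 0, 168 by DESeq2, and 0 to 116 (without mouse 11) with a mouse left out. Of the 164 genes selected by the rule for named genes, 30 changed sign without saline mouse 3, 9 of them mitochondrially encoded. For 105 genes, mostly those described in the text, 10 of 1880 log2 fold changes under the alternatives changed sign. Without saline mice 2 and 3 that of Hmgcs1 became 0.023, of Reg3g 0.11, of Muc5ac 0.44 and of Hlf 0.56. Hlf was also at 0.65 by voom and, without saline mouse 3, at 0.69 by DESeq2, 0.68 with DESeq2 size factors and 0.64 with upper-quartile factors, and between -0.34 and 0.68 with 1 mouse left out. Of 60 list medians, 22 changed sign without saline mouse 3, 11 without saline mouse 2, 10 without saline mouse 1, 5 to 7 without a treated mouse, 22 by voom and 10 with at least 10 counts in every mouse. The cause was not tested.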
